A study of Homo sapiens with 4 samples.

Results

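The 10 genes described here encode parts of the machinery that lets a cell contract, or muscle proteins that go with it: MYBPC1, MLIP, ACTA2, TAGLN, CNN1, MYL9, TPM1, TPM2, CALD1 and MYLK. They were listed by symbol and chosen by their read counts in these same libraries, MYBPC1 and MLIP for low counts with indisulam, so the levels below describe the genes that were picked and test nothing. All 10 were found among the 60279 genes of the count tables, and all 10 were among the 14269 genes with a mean level of at least 1 CPM (the read count set against the gene total of its library) over the 4 libraries. CNN1 passed that filter only through its level in the combination library. RNA sequencing was done on SUM159, an established triple-negative breast cancer cell line, without treatment, with palbociclib, with indisulam, and with both together. Palbociclib blocks CDK4 and CDK6, kinases that drive cells from G1 into S phase. Indisulam, an aryl sulfonamide, brings the splicing factor RBM39 to a ubiquitin ligase and so leads to its degradation. The sample labels give 10 days of treatment (0.5 µM palbociclib, 2 µM indisulam), while the text of the series gives 16 h (2 µM and 3 µM) and technical duplicates. Which of these applies to the libraries was not settled, and neither was whether duplicates were merged. Each condition had 1 library of 1 cell line, so no difference has a replicate check and no p-value was computed.

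Contraction rests on myosin filaments that pull on actin filaments. In skeletal and heart muscle the filaments stand in register as sarcomeres, and in smooth muscle and in many migrating or adherent cells they form looser bundles and stress fibres. In the looser form, calcium signals activate myosin light chain kinase, the kinase phosphorylates the regulatory light chain of myosin, and tropomyosin, caldesmon, calponin and transgelin bind along the actin filament. Many smooth muscle contractile genes are known targets of serum response factor (SRF), which binds a DNA element called the CArG box, while the MCAT element is bound by the TEAD factors.

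The libraries held from 12555908 to 16712174 reads in genes, and the 10 genes together took from 0.151% of them in the untreated library to 0.303% with the combination. The share of mitochondrially encoded genes ran from 4.90% to 7.33%. Of the markers of mesenchymal-type breast cancer cells (VIM, CD44, AXL, ZEB1, CDH2), 5 of 5 were above the floor of 3 reads in every library, with a summed level from 4048 to 5994 CPM. The luminal markers (ESR1, PGR, GATA3, EPCAM, CDH1) summed to between 7.64 and 15.2 CPM. The labels name no batch, so a batch and a condition cannot be told apart. In a bulk sample, fewer cells of a type and less RNA per cell cannot be told apart either.

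The libraries did not hold the defining genes of a muscle cell. The skeletal muscle regulators MYOD1, MYOG, MYF5 and PAX7 had 0 reads in all 4 libraries, and the skeletal muscle actin ACTA1 had at most 6. Of the smooth muscle markers, the heavy chain MYH11 had at most 2 reads, the SRF partner MYOCD at most 1 and desmin (DES) at most 6. SMTN and LMOD1 made up nearly all of the summed smooth muscle marker level, which ran from 41.1 CPM in the untreated library to 56.2 CPM in the combination library. The genes are therefore called contractile and sarcomere genes by what they encode, and not as marks of a cell type.

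Stretches of promoter DNA with the motifs named above are shown because many contractile genes are known as SRF or TEAD targets in muscle. RefSeq windows from 250 bases before to 50 bases after an annotated start (GRCh38.p14) were matched by symbol for 8 of the 10 genes, with 13 windows in all. TAGLN and MYL9 were not matched. The CArG box was searched as CCWWWWWWGG, with W for A or T, a pattern that is the same on both strands. It was found in 1 window of the 10 genes, that of MYLK, and in 454 of all 35116 windows (1.29%). The MCAT element, searched as CATTCC and as its reverse complement GGAATG, was found in 5 windows of 4 genes (ACTA2, CALD1, MLIP and MYLK) and in 14.0% of all windows. No window of MYBPC1, CNN1, TPM1 or TPM2 held either set of letters, which says only that the letters are not in these stretches. ACTG2, the smooth muscle gamma actin, is not 1 of the 10 genes and was picked after its values had been seen. Against untreated, its log2 ratios with indisulam and with the combination were the highest among the tested genes of the related lists below. Its window held the CArG box at 2 places. The stretches are 30 bases long, read 5′ to 3′ on the strand of the gene, and capitals mark the motif. They lie at chr3:123620623-123620652 (minus strand) for MYLK, chr6:54018911-54018940 (plus strand) for MLIP, and chr2:73892888-73892917 and chr2:73892925-73892954 (plus strand) for ACTG2.
MYLK, CArG box 94 bases before the start: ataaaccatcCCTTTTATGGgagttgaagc
MLIP, MCAT element 47 bases before the start: ctctcacaacttGGAATGtcctgcaatatc
ACTG2, CArG box 110 bases before the start: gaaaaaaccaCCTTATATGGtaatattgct
ACTG2, CArG box 73 bases before the start: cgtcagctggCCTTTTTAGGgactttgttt
The MYLK and MLIP stretches belong to annotated starts inside the gene rather than at its outer end, and the read counts do not separate transcripts from different starts. The MYLK window, chr3:123620499-123620798, lies near the 3′ end of the gene (chr3:123610049-123884332). It therefore does not describe the promoter at the outer start. A match of letters is a description of the reference sequence and not a measured binding site. No motif in these stretches shares a base with another of those searched.

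Across the libraries the 10 genes went 2 ways. MYBPC1 and MLIP had their lowest levels with both drugs, and the other 8 genes had higher levels with both drugs than without treatment. A gene was called when its scaled reads differed by at least 2-fold and the 95% interval of the log2 ratio, which covers counting error only, did not include 0. Indisulam against untreated had 4 of the 10 genes called higher, beside 8.39% of all tested genes, and 2 called lower, beside 6.69% (15.1% in either direction). The combination against palbociclib had 2 called higher, beside 9.56%, and 2 called lower, beside 7.38% (16.9% in all). Palbociclib against untreated had 5 called higher, beside 5.85%, and 1 called lower, beside 4.89% (10.7% in all). The combination against indisulam had 3 called higher, beside 5.04%, and 1 called lower, beside 3.15% (8.19% in all). The combination against untreated had 7 called higher, beside 12.9%, and 2 called lower, beside 10.5% (23.5% in all). Since these comparisons served to choose the genes, nothing is read from the counts. Leaving out MYBPC1 and MLIP, the median log2 ratio over the 8 genes was 0.90, 0.57, 1.14, 0.60 and 1.39 in the same order of comparisons, where the median over all tested genes was 0.06, 0.07, -0.02, -0.01 and 0.05.

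**Figure D1:**
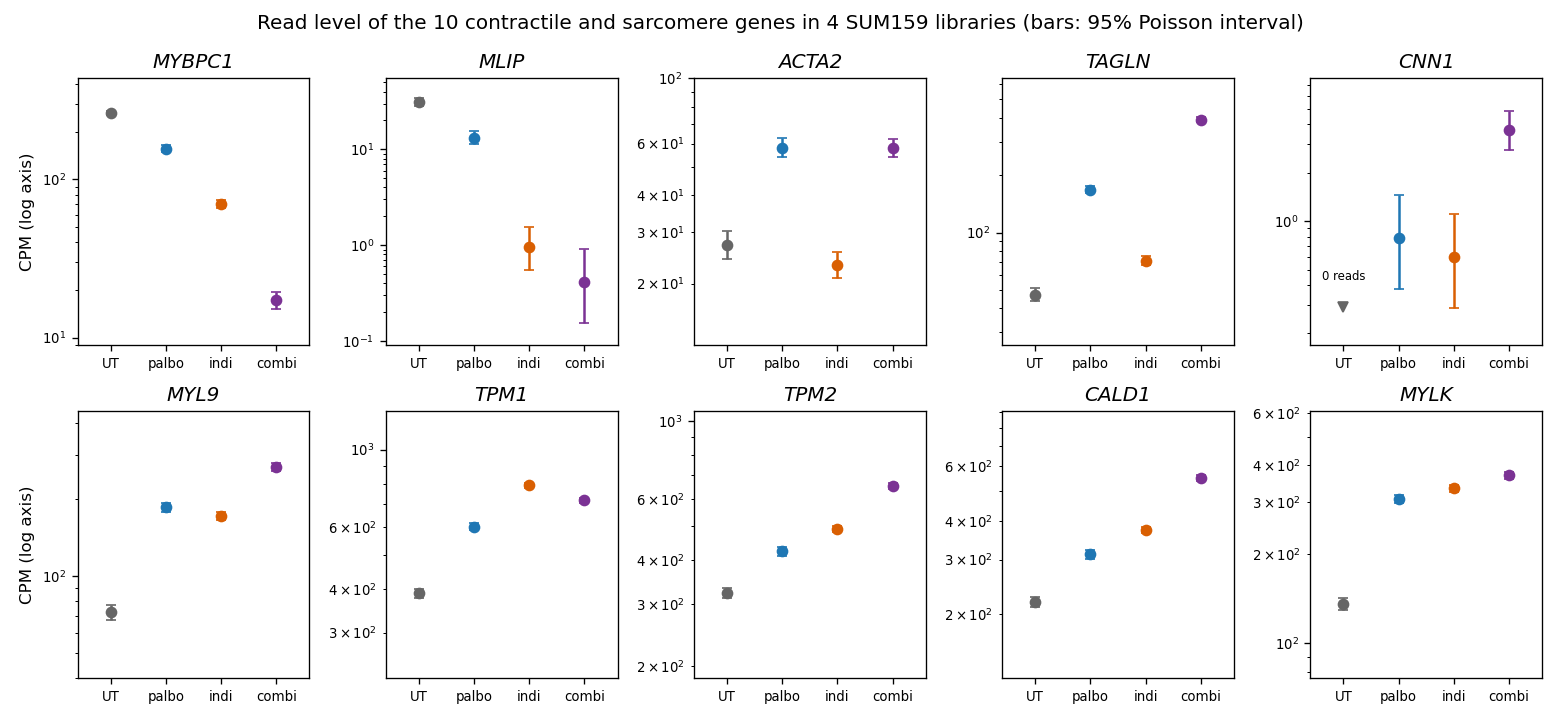
Read level in CPM (log axis, its range differing between panels) of each of the 10 genes in the untreated (UT), palbociclib (palbo), indisulam (indi) and combination (combi) libraries, 1 point per library, with bars for the 95% Poisson interval of the count. The triangle for CNN1 stands at the upper limit of its interval, since the untreated library had 0 reads. MYBPC1 and MLIP step down from left to right, whereas TAGLN, CNN1, MYL9, TPM2, CALD1 and MYLK are highest with the combination.

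MYBPC1 encodes slow skeletal myosin-binding protein C, a protein of the sarcomere's thick filament (chr12:101568353-101686028, plus strand, GENCODE 44 on GRCh38, as for all gene positions here). It had 3300 reads (263 CPM) untreated, 1990 reads (157 CPM) with palbociclib, 1163 reads (69.6 CPM) with indisulam and 248 reads (17.3 CPM) with the combination. All 4 levels were apart by their counting intervals, with the untreated library highest and the combination library lowest. In the untreated library its CPM ranked 575 of the 14269 tested genes, and in the combination library 8404. It had 35.3 RPKM (CPM per kilobase of exon, counting every annotated exon of a gene) untreated and 2.32 RPKM with the combination.

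The log2 ratio of MYBPC1 was -1.92 (-2.01 to -1.82) with indisulam alone, a 3.78-fold lower level, and -3.18 (-3.37 to -2.99) where indisulam was added to palbociclib, a 9.08-fold lower level. With palbociclib alone it was -0.74 (-0.83 to -0.66), short of a call. When palbociclib was added to indisulam it was -2.01 (-2.20 to -1.81). The level with both drugs was 15.2-fold lower than without treatment. MYBPC1 was called lower in the combination library than in each of the other 3, as were 1.06% of all tested genes. The rest of its family had few reads: MYBPC2 at most 3, MYBPC3 at most 9 and MYBPH at most 22.

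MLIP encodes a muscle protein that binds lamin A/C at the nuclear envelope and is not itself a contractile protein (chr6:53929982-54266280, plus strand). It had 390 reads (31.1 CPM) untreated, 168 reads (13.2 CPM) with palbociclib, 16 reads (0.957 CPM) with indisulam and 6 reads (0.418 CPM) with the combination. Both libraries with indisulam were far below the others, and the levels with indisulam and with the combination were not apart. Indisulam alone gave a log2 ratio of -4.92 (-5.62 to -4.22), and indisulam on top of palbociclib gave -4.77 (-5.86 to -3.68). These values ranked 5 and 9 from the lowest of all tested genes. Palbociclib alone gave -1.23 (-1.49 to -0.97), which was called. On top of indisulam the ratio was -1.07 (-2.34 to 0.19), an interval too wide for a call at 16 and 6 reads. With both drugs the level was 74.3-fold lower than untreated. At so few reads the ratios depend on the scaled count added: with 5 in place of 1, the log2 ratio was -4.14 for the combination against palbociclib, and -5.34 in place of -5.99 for the combination against untreated. MLIP was called higher in the untreated library than in each of the other 3, as were 1.25% of all tested genes.

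TAGLN encodes transgelin, an actin-binding protein of the calponin family that is abundant in smooth muscle (chr11:117199370-117207464, plus strand). It had 594 reads (47.3 CPM) untreated, 2125 reads (167 CPM) with palbociclib, 1191 reads (71.3 CPM) with indisulam and 5621 reads (391 CPM) with the combination. Every level was apart from the next, and the combination library was highest. The log2 ratio was 1.82 (1.69 to 1.95) with palbociclib alone and 2.46 (2.37 to 2.55) with palbociclib on top of indisulam. With indisulam alone it was 0.59 (0.45 to 0.73), short of a call. On top of palbociclib, indisulam gave 1.22 (1.15 to 1.30), which was called. Both drugs together gave an 8.27-fold higher level than untreated, and the rank of the CPM went from 4549 to 341. TAGLN overlaps a gene model on its own strand, ENSG00000280143, which had 42, 176, 53 and 175 reads in the untreated, palbociclib, indisulam and combination libraries. On the opposite strand it overlaps PCSK7, which had 649, 825, 780 and 769 reads in that order, so without the strand setting reads in that overlap cannot be told apart. How reads shared by TAGLN and the model on its own strand were counted was not given in the sources used here.

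CNN1 encodes calponin 1, which binds actin and slows the myosin ATPase in smooth muscle (chr19:11538767-11550323, plus strand). It had 0 reads untreated, 10 reads (0.788 CPM) with palbociclib, 10 reads (0.598 CPM) with indisulam and 53 reads (3.69 CPM) with the combination. The single-drug libraries were not apart from each other, and the combination library was above both. A count of 0 in the untreated library allows up to 0.239 CPM at the floor of 3 reads, and against that floor the combination was at least 15.4-fold higher. With the same floor per library, palbociclib alone was at least 3.30-fold higher and indisulam alone at least 2.50-fold higher. The combination was 4.68-fold higher than palbociclib, with a log2 ratio of 2.13 (1.19 to 3.07), and 6.17-fold higher than indisulam, with 2.49 (1.56 to 3.42). TAGLN and CNN1 were called higher in the combination library than in each of the other 3, as were 1.96% of all tested genes. CNN1 passed the filter only through that same library, so nothing is read from its call there. CNN1 stayed a low gene even there, at 1.30 RPKM beside 59.8 RPKM for TAGLN.

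ACTA2 encodes smooth muscle alpha actin, the actin of contractile smooth muscle and of myofibroblasts (chr10:88935074-88991339, minus strand). It had 340 reads (27.1 CPM) untreated, 738 reads (58.1 CPM) with palbociclib, 388 reads (23.2 CPM) with indisulam and 834 reads (58.1 CPM) with the combination. Both libraries with palbociclib were high and not apart from each other, and both without it were low. The log2 ratio for palbociclib was 1.10 (0.92 to 1.29) alone and 1.32 (1.15 to 1.49) on top of indisulam, and both were called. For indisulam it was -0.22 (-0.43 to -0.01) alone, and with palbociclib present its interval ran from -0.14 to 0.14. ACTA2 lies opposite FAS, which had 312 to 673 reads, and opposite STAMBPL1, which had 148 to 232. Without the strand setting, reads of ACTA2 and of these genes where they overlap cannot be told apart. FAS and STAMBPL1 were highest with indisulam, where ACTA2 was lowest. The part of such reads in the level of ACTA2 was not tested. Actin genes are close copies of each other in their coding sequence, and reads that aligned to more than 1 place were not counted for a gene, so ACTA2 may be undercounted.

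MYL9 encodes the smooth muscle form of the myosin regulatory light chain (chr20:36541497-36551447, plus strand), and MYLK the kinase that phosphorylates it (chr3:123610049-123884332, minus strand). MYL9 had 908 reads (72.3 CPM) untreated, 2368 reads (187 CPM) with palbociclib, 2881 reads (172 CPM) with indisulam and 3851 reads (268 CPM) with the combination. MYLK had 1705 reads (136 CPM) untreated, 3910 reads (308 CPM) with palbociclib, 5590 reads (334 CPM) with indisulam and 5320 reads (370 CPM) with the combination. For both genes the untreated library was the lowest and was called lower than each of the other 3, as were CNN1 and 2.14% of all tested genes. The log2 ratio of MYL9 was 1.37 (1.26 to 1.48) with palbociclib and 1.25 (1.14 to 1.36) with indisulam, both called. The second drug added less, 0.52 (0.45 to 0.60) for indisulam and 0.64 (0.57 to 0.71) for palbociclib, and neither was called. MYLK behaved alike. Palbociclib gave it a log2 ratio of 1.18 (1.10 to 1.26) and indisulam 1.30 (1.22 to 1.38), with 0.27 (0.21 to 0.33) and 0.15 (0.09 to 0.20) where indisulam or palbociclib came second. With both drugs, MYL9 was 3.71-fold and MYLK 2.73-fold above untreated.

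TPM1 and TPM2 encode tropomyosins, which lie along actin filaments and set the access of myosin (chr15:63042620-63071915, plus strand, and chr9:35681992-35690056, minus strand). CALD1 encodes caldesmon, which binds actin and tropomyosin and holds back the myosin ATPase (chr7:134744252-134970729, plus strand). TPM1 had 4874 reads (388 CPM) untreated, 7633 reads (601 CPM) with palbociclib, 13207 reads (790 CPM) with indisulam and 10276 reads (716 CPM) with the combination. It was the only gene of the 8 with its highest level under indisulam alone. Its log2 ratio was 1.03 (0.98 to 1.07) there, a call that was lost with TMM (0.97), median-of-ratios (0.96) and upper-quartile (0.98) factors, and 0.63 (0.58 to 0.68) with palbociclib. Adding palbociclib to indisulam gave -0.14 (-0.18 to -0.11), and both drugs against none gave 0.88 (0.83 to 0.93), so TPM1 was the 1 gene of the 10 not called with the combination.

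TPM2 had 4055 reads (323 CPM) untreated, 5384 reads (424 CPM) with palbociclib, 8214 reads (491 CPM) with indisulam and 9374 reads (653 CPM) with the combination. CALD1 had 2750 reads (219 CPM) untreated, 3955 reads (312 CPM) with palbociclib, 6237 reads (373 CPM) with indisulam and 7918 reads (551 CPM) with the combination. Both genes had the same order of libraries, with every step apart by its counting interval. No single-drug ratio of either reached 2-fold. The log2 ratio of TPM2 was 0.61 (0.55 to 0.66) and 0.62 (0.57 to 0.67) for indisulam without and with palbociclib, and 0.39 (0.33 to 0.45) and 0.41 (0.37 to 0.45) for palbociclib without and with indisulam. CALD1 gave 0.77 (0.70 to 0.83) and 0.82 (0.77 to 0.88) for indisulam, and 0.51 (0.44 to 0.58) and 0.56 (0.52 to 0.61) for palbociclib. With both drugs TPM2 was 2.02-fold and CALD1 2.52-fold above untreated, and both were called. The call of TPM2 was lost with TMM (0.96) and median-of-ratios (0.97) factors.

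**Figure D2:**
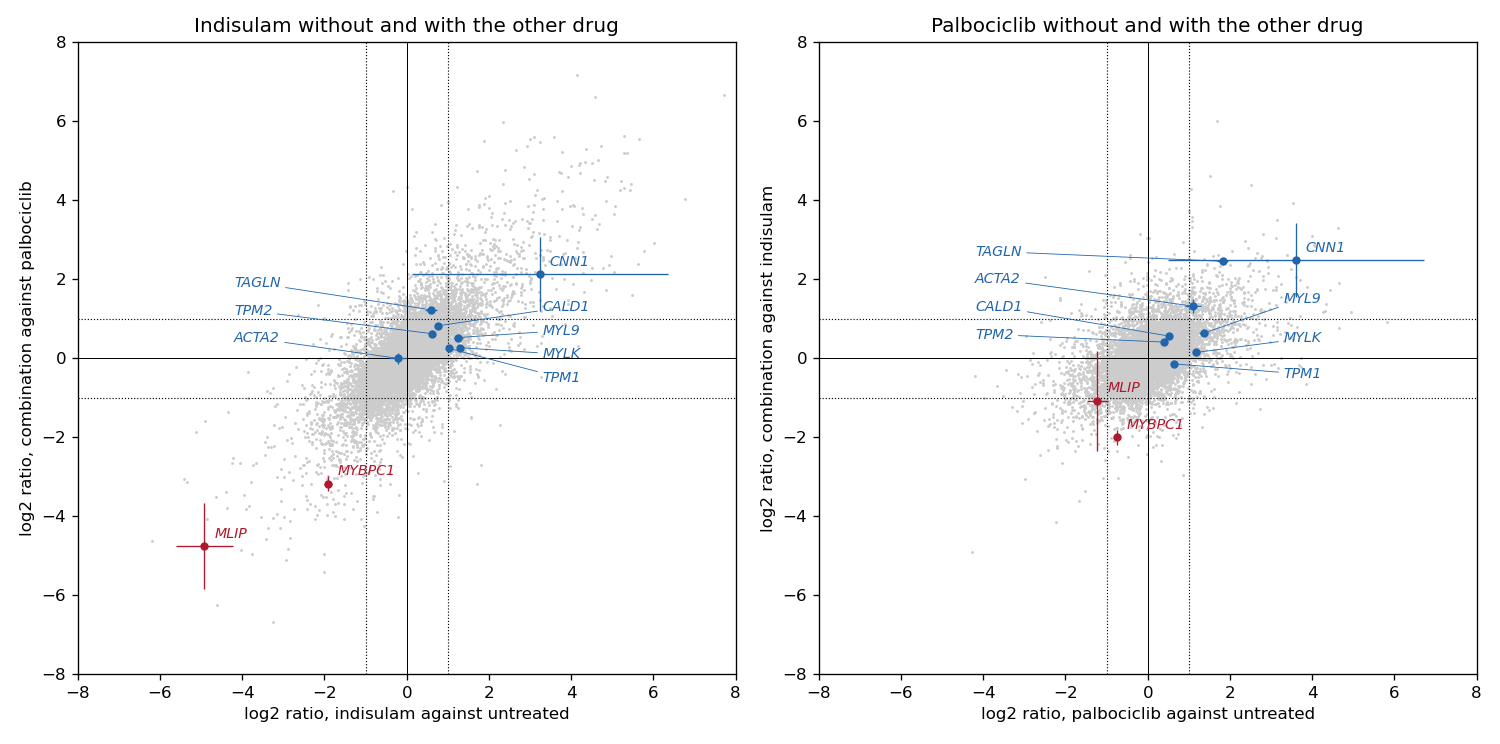
Log2 ratio of each drug without the other (horizontal) and in its presence (vertical), for indisulam (left) and palbociclib (right), where the ratios on the axes of a panel share no library. Grey points are the 14269 tested genes, red points MYBPC1 and MLIP, blue points the other 8 genes, bars the 95% counting intervals and dotted lines 2-fold; the CNN1 values against untreated depend on the added scaled count, since that library had 0 reads. MLIP and MYBPC1 lie low on both axes for indisulam, and ACTA2, TAGLN and CNN1 lie past 2-fold on both axes for palbociclib. CNN1 passed the filter only through the combination library.

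Each drug could be read in 2 pairs of libraries with no library in common. Other comparisons share a library, so their calls, such as those against each of the other libraries, are not independent of each other. For indisulam, MYBPC1 and MLIP were called lower in both pairs, beside 3.66% of all tested genes, and CNN1 was called higher in both, beside 4.86%. For palbociclib, ACTA2, TAGLN and CNN1 were called higher in both, beside 1.99%, and none of the 10 genes was called lower in both, beside 1.25%. CNN1 passed the filter only through the combination library, which is part of a pair for each drug. Nothing is therefore read from the calls of CNN1 here. None was called higher in the palbociclib library than in each of the other 3 libraries, beside 1.17%, or lower, beside 1.28%. The same held for the indisulam library, beside 0.399% higher and 0.687% lower.

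Departure from additivity is how far the log2 ratio of both drugs against none lies from the 2 single-drug log2 ratios added together. For TPM2 it was 0.02 (-0.06 to 0.09) and for CALD1 0.05 (-0.03 to 0.14), so the drugs added up on the log scale for these 2 genes within counting error. ACTA2 gave 0.22 (-0.03 to 0.47) and MLIP 0.15 (-1.14 to 1.45). Of the 10 genes, 2 departed downward by 2-fold or more, beside 3.84% of all tested genes, and none upward, beside 3.93% (7.77% in all). MYBPC1 lay below the sum, at -1.26 (-1.47 to -1.05), meaning a lower level with both drugs than the single drugs add up to. MYLK also lay below the sum, at -1.03 (-1.13 to -0.94), and for this gene both drugs gave less of an increase than the single drugs add up to. TPM1 at -0.77 (-0.84 to -0.71) and MYL9 at -0.73 (-0.86 to -0.60) lay on the same side, and TAGLN at 0.63 (0.48 to 0.79) on the other. CNN1 had an interval from -4.36 to 2.14, since its untreated count was 0.

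Counting error is not the whole error. The departure carries the noise of every library as well as real interaction between drugs. Its robust spread over genes was scaled to 1 ratio, taking the noise of the libraries as equal and independent. It is a rough guide for a typical gene and sets no limit on the noise of a given gene. For genes at 100 CPM or more this guide was an SD of 0.28 on the log2 scale, for 20 to 100 CPM 0.26, for 5 to 20 CPM 0.37 and for 1 to 5 CPM 0.62. The ratios of TPM1 with palbociclib added to indisulam, of TPM1 and MYLK with indisulam added to palbociclib, of MYLK with palbociclib added to indisulam, and of ACTA2 for indisulam in both pairs were smaller than the guide of their level class. Called ratios are at least 2-fold by definition and so exceed the guide of every class, which is no check of the calls.

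**Figure D3:**
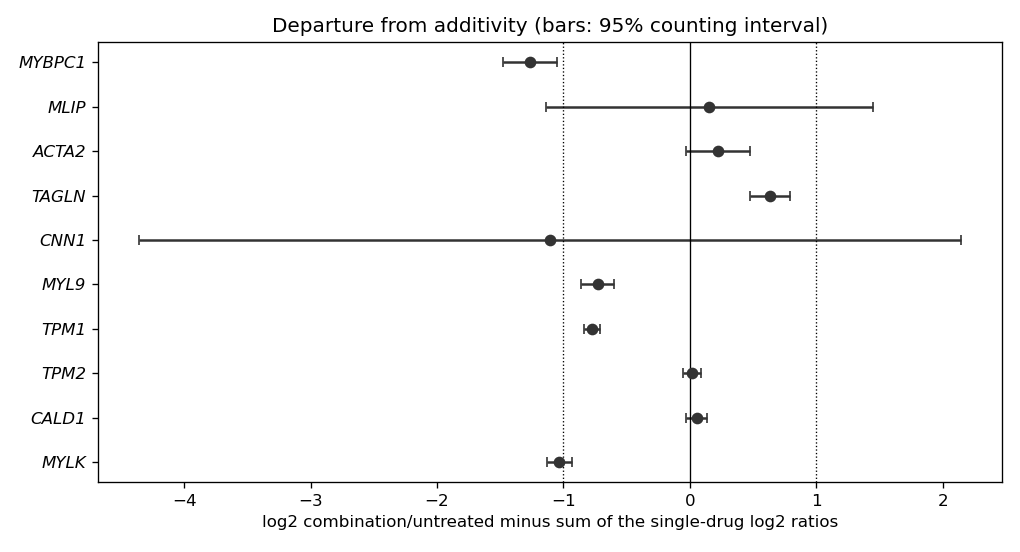
Departure from additivity on the log2 scale (horizontal) for each of the 10 genes (vertical), with bars for the 95% counting interval over the 4 libraries and dotted lines at 2-fold. MYBPC1 at -1.26 and MYLK at -1.03 lie past the dotted line, TPM2 and CALD1 lie at 0, and the interval of CNN1 spans most of the axis.

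Several of the 10 genes have close relatives that non-muscle cells use for the same task, and a comparison within a family does not depend on the scaling of the libraries. The relatives were set beside the genes after values had been seen. Shares of RPKM rest on all annotated exons of a gene, which can be longer together than 1 transcript, so the size of a share is rough. Of the RPKM of both transgelin genes, TAGLN made up 1.98% untreated, 8.38% with palbociclib, 3.89% with indisulam and 17.2% with the combination, and TAGLN2 the rest. The log2 ratio of TAGLN exceeded that of TAGLN2 by 3.36 (3.23 to 3.49) for the combination against untreated. MYL9 made up 8.03% of the regulatory light chains (with MYL12A and MYL12B) untreated, 20.03% with palbociclib, 14.0% with indisulam and 20.6% with the combination. Its ratio exceeded that of MYL12A by 1.36 (1.24 to 1.48) and that of MYL12B by 1.69 (1.57 to 1.81) with both drugs.

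Among the tropomyosins, TPM4, a form found in most non-muscle cells, made up 49.4% of the RPKM untreated and 35.2% with the combination. TPM2 made up 36.0% untreated, 45.7% with palbociclib, 38.5% with indisulam and 48.3% with the combination. TPM1 made up 9.36%, 14.0%, 13.4% and 11.5% in that order, highest with palbociclib. The exon bases used were 14700 for TPM1 and 3183 for TPM2. TPM1 had more reads than TPM2 in the untreated library, so which of them has the larger share depends on these lengths. The smooth muscle actins were a small part of the actin reads throughout. ACTA2 made up 0.241% of the RPKM of the 4 actins ACTA2, ACTG2, ACTB and ACTG1 untreated and 0.463% with the combination. ACTG2 went from 0.0670% to 2.54%. CNN1 made up 0% of the calponins untreated and 0.902% with the combination, with CNN2 and CNN3 as the rest.

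Of 16 other smooth muscle contractile genes, 10 passed the filter. With indisulam against untreated 4 were called higher (beside 8.39% of all tested genes), with the combination against palbociclib 4 (9.56%), with palbociclib against untreated 2 (5.85%), with the combination against indisulam 2 (5.04%), and with the combination against untreated 4 (12.9%). None was called lower in these comparisons, where from 3.15% to 10.5% of all tested genes were. Over the 10, the median was 0.62, 0.69, 0.18, 0.13 and 0.78 on the log2 scale in that order, beside the medians over all tested genes given above. ACTG2, the smooth muscle gamma actin, had 64 reads untreated, 285 with palbociclib, 1573 with indisulam and 3099 with the combination. For indisulam the log2 ratio was 4.19 (3.83 to 4.55) alone and 3.26 (3.09 to 3.44) on top of palbociclib. For palbociclib it was 2.12 (1.74 to 2.51) alone and 1.20 (1.11 to 1.28) on top of indisulam, so ACTG2 was called in all 5 comparisons. SYNPO2, which encodes an actin-bundling protein of the Z-disc, was also called higher in all 5, with 41, 87, 157 and 307 reads in the untreated, palbociclib, indisulam and combination libraries.

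PDLIM5, which encodes a PDZ and LIM domain protein that binds alpha-actinin, had 748 reads untreated, 462 with palbociclib, 4464 with indisulam and 2516 with the combination. It was high in both libraries with indisulam, with a log2 ratio of 2.16 (2.05 to 2.28) alone and 2.26 (2.12 to 2.41) on top of palbociclib. PDLIM7, a relative of PDLIM5, and SMTN, which encodes smoothelin, were the other genes of this list called in any comparison. PDLIM7 had 698, 982, 2029 and 1635 reads, and SMTN had 207, 154, 439 and 370, in the untreated, palbociclib, indisulam and combination libraries.

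Of 40 other genes of the striated muscle sarcomere, 29 did not pass the filter, among them every heavy chain, cardiac or skeletal actin and troponin C or I gene listed. Of the 11 that did, 2 were called higher and 4 lower with indisulam (beside 8.39% and 6.69% of all tested genes), 3 and 3 with the combination against palbociclib (9.56% and 7.38%), and 1 and 3 with palbociclib (5.85% and 4.89%). With the combination against indisulam 1 and 1 were called (5.04% and 3.15%), and against untreated 2 and 3 (12.9% and 10.5%). TMOD1, which encodes a protein that caps the slow-growing end of actin filaments, had 333 reads untreated, 261 with palbociclib, 129 with indisulam and 105 with the combination. Indisulam gave a log2 ratio of -1.77 (-2.06 to -1.48) alone and -1.48 (-1.81 to -1.16) on top of palbociclib. TNNT1, the slow skeletal troponin T gene, was lower in both libraries with palbociclib, with 210, 42, 152 and 46 reads in the untreated, palbociclib, indisulam and combination libraries. The fast troponin T gene TNNT3 and the titin gene TTN lie below 5 CPM and are named after their values were seen. TNNT3 had 66, 7, 1 and 0 reads, and TTN 2, 5, 5 and 69, in the same order of libraries. TNNT3 passed the filter only through the untreated library and TTN only through the combination library. Nothing is therefore read from their calls, which are part of the counts above.

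Of 22 non-muscle actomyosin genes, which serve the general actin and myosin machinery, 21 passed the filter. With the combination against untreated none was called in either direction, beside 23.5% of all tested genes, with log2 ratios from -0.69 to 0.98. With palbociclib against untreated none was called either, beside 10.7%. With indisulam 2 were called, beside 15.1%. ACTN1, an alpha-actinin that cross-links actin, was higher at 1.02 (0.98 to 1.07) and FLNC, a filamin of muscle, lower at -1.04 (-1.48 to -0.60). With the combination against palbociclib 2 were called higher, beside 9.56%, among them FLNC at 1.46 (1.03 to 1.89), and none lower, beside 7.38%. With the combination against indisulam only FLNC was called, higher at 1.59 (1.19 to 2.00), beside 8.19%.

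Of 14 genes that control contraction, among them kinases and subunits of myosin phosphatase, 13 passed the filter. PPP1R12B, which encodes a targeting subunit of myosin phosphatase, was called higher with indisulam at 1.14 (0.99 to 1.29), and PRKG1, the cGMP-dependent kinase gene, lower at -1.01 (-1.43 to -0.58). Of SRF and 9 partner genes, 9 in all passed the filter. SRF itself had 61.7 CPM untreated, 76.0 CPM with palbociclib, 94.7 CPM with indisulam and 80.6 CPM with the combination, and was called in none of the 5 comparisons. MRTFA, an SRF coactivator that responds to actin, was called higher with the combination against untreated at 1.26 (1.00 to 1.52), with 155, 288, 399 and 426 reads in the untreated, palbociclib, indisulam and combination libraries. TGFB1I1, an adhesion protein that also acts as an SRF partner, was called lower with the combination against indisulam at -1.09 (-1.23 to -0.95).

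**Figure D4:**
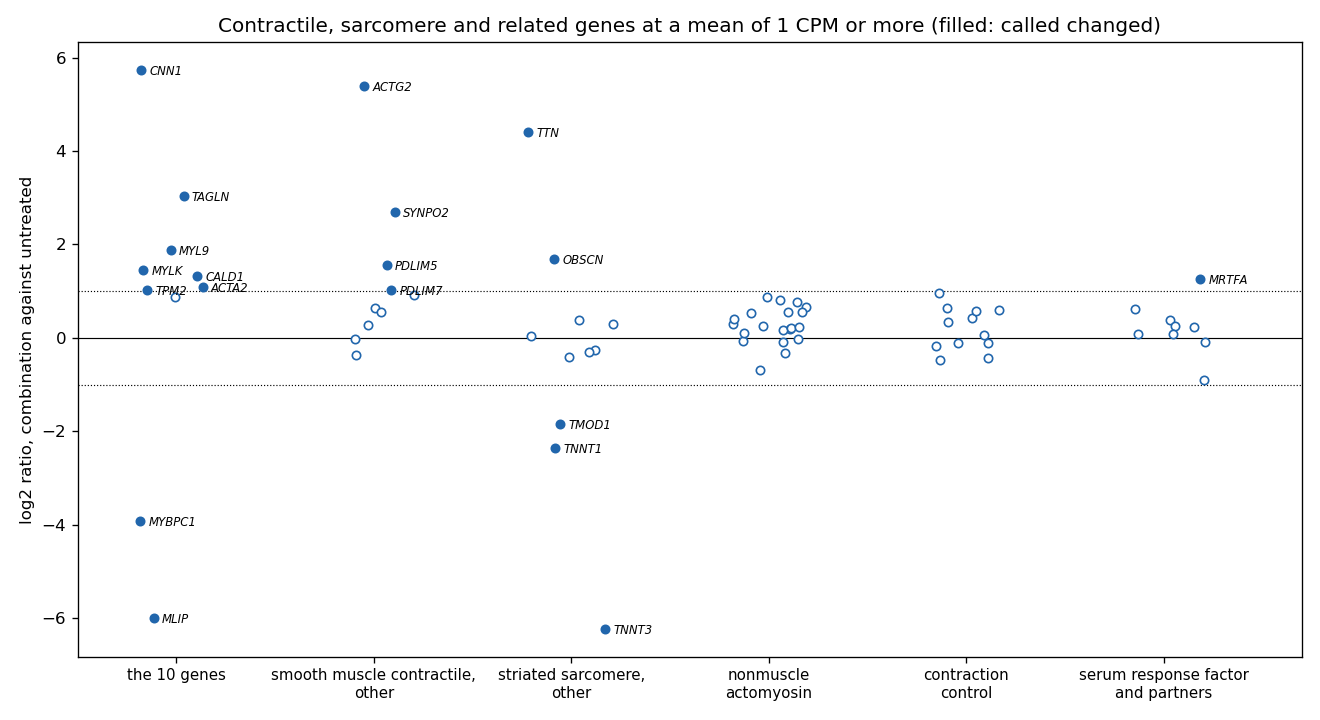
Log2 ratio of the combination to untreated (vertical) for the 10 genes and for the tested genes of 5 related lists, apart from 2 genes not reported here (horizontal, with points spread sideways for legibility); filled points were called changed and are named, open points were not, and dotted lines mark 2-fold. The non-muscle actomyosin genes shown all lie within 2-fold, while ACTG2 lies at 5.38 and MLIP at -5.99; the values of CNN1 and TNNT3 depend on the added scaled count, since 1 of their libraries had 0 reads.

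The genes whose pattern over the 4 libraries was most like that of MYBPC1 were found by the Euclidean distance between log2 scaled counts, each centred on its mean. MLXIPL, which encodes a carbohydrate-responsive transcription factor, was nearest at 0.11, with 807, 442, 281 and 59 reads in the untreated, palbociclib, indisulam and combination libraries. ZNF467 at 0.39, BEST2 at 0.46, NT5M at 0.50 and BAIAP3 at 0.52 followed. Nearest to MLIP were LSP1 at 0.88, GPD1 at 1.02, the long non-coding RNA ENSG00000249036 at 1.07, TOGARAM2 at 1.18 and LGALS12 at 1.26. LSP1, an actin-binding protein of leukocytes, had 1350 reads untreated, 772 with palbociclib, 132 with indisulam and 27 with the combination. The pattern of ACTA2 was nearest to TEX2 at 0.13, CHI3L2 at 0.15, CASC19 at 0.15, DTWD2 at 0.17 and HOXB13 at 0.18. With 4 libraries, such likeness is a description.

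The tested genes on either side of MYBPC1 and MLIP were called in none of the 5 comparisons. ARL1 ends 161 kb before MYBPC1 and had log2 ratios of -0.49 (-0.60 to -0.37) with indisulam and -0.17 (-0.29 to -0.06) with both drugs. CHPT1 starts 10.9 kb after it and had -0.44 (-0.56 to -0.32) and -0.79 (-0.92 to -0.65). LRRC1 ends 5.86 kb before MLIP and had -0.62 (-0.84 to -0.39) with indisulam and -0.71 (-0.95 to -0.46) with both drugs. COL21A1, 1790 kb after it, had 0.14 (-0.20 to 0.47) and -0.51 (-0.89 to -0.12).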

How the data were processed

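Transcripts of SUM159 cells were counted in 4 libraries, 1 per condition, grouped by the labels. The authors made strand-specific poly(A) libraries. The deposited values are raw counts of reads per Ensembl gene, not normalized, and the submitters' processing notes name TopHat2 2.1, HTSeq and GRCh38. Neither the strand setting of the counting nor its annotation release is given in the sources used here. Tallies of reads in no gene, in several genes or aligned to several places were kept apart from the genes. The labels give Trizol for RNA extraction and the study's methods give silica columns.

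Counts were scaled so that every library had the mean gene total, and log2 ratios were taken of scaled counts plus 1. The 14269 of 29056 genes with at least 1 read that had a mean of 1 CPM or more were tested. A gene was called at 2-fold where the 95% interval from Poisson counting error excluded 0. Reads carry no molecular identifiers, so intervals and floors (3 reads) cover counting error only. RPKM values used the bases covered by any annotated exon of a gene in GENCODE 44, over all its transcripts. Python 3.11.15 with numpy 2.4.6, pandas 2.3.3 and scipy 1.17.1 was used, with R 4.3.3, edgeR 4.0.16 and DESeq2 1.42.0 for scaling factors.

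The 10 genes and the related lists were chosen with earlier results of these data known. All 10 genes were named. From each list, up to 3 called genes per comparison at a mean of 5 CPM or more were named, those with the largest ratios, with the 5 genes most like MYBPC1, MLIP and ACTA2 and the nearest tested gene on each side of MYBPC1 and MLIP. Some called genes of these lists are not reported here. Family relatives, PDLIM7, SMTN, TTN, TNNT3, SRF and the cell type markers lie outside that rule. Indisulam and palbociclib were each read in 2 pairs of libraries that share none. Alternatives tried were other scalings, another added count, no filter or a filter at 5 CPM, a call at 1.5-fold and an exact interval of the ratio.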

Additional observations from a re-analysis of the deposited data

Results flagged for a closer look

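FLNC, a filamin of muscle in the non-muscle actomyosin list, was called lower with indisulam alone, at a log2 ratio of -1.04, and higher where indisulam was added to palbociclib, at 1.46. The 2 ratios share no library. Their difference, which is the departure from additivity, was 2.50 (1.88 to 3.12) and was called. That interval covers counting error only, and with 1 library per condition the difference was not tested. FLNC had 103 reads untreated, 55 with palbociclib, 66 with indisulam and 173 with the combination.

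Of the 3 tallies outside genes, 2 were higher in every treated library than in the untreated library. Reads aligned to more than 1 place were 6.84% with palbociclib, 6.53% with indisulam and 6.53% with the combination, beside 6.46% untreated. Reads in no gene were 0.663% with palbociclib, 0.694% with indisulam and 0.671% with the combination, beside 0.615% untreated. Reads in more than 1 gene went the other way, with 2.57%, 2.55% and 2.41% in the same order beside 2.63% untreated. Their part in the levels of the actin and tropomyosin genes was not tested.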

How the results depend on the processing

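With 1 library per condition no library could be left out. No paired analysis was possible because each condition had 1 library, which leaves nothing to estimate a block from. Over the 50 ratios of the 10 genes, no alternative reversed a sign. The call of TPM1 with indisulam was lost with TMM, median-of-ratios and upper-quartile factors, and that of TPM2 with the combination against untreated with TMM and median-of-ratios factors. These scalings moved the median of all genes by less than 0.1. With 5 scaled counts added in place of 1, the departure of CNN1 was 0.40 in place of -1.11. A filter at a mean of 5 CPM removed CNN1. At a call of 1.5-fold, 9 more ratios were called, and 5 genes rather than 2 departed from additivity. The other alternatives changed no call.

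Over all tested genes, 2152, 2417, 1533, 1169 and 3349 were called in the order of comparisons used above, and 1109 departed from additivity. At 1.5-fold these were 4485, 4683, 3533, 3167, 6059 and 2685, and with the filter at 5 CPM 1212, 1396, 833, 544, 2104 and 582. With no filter, 1783 were called with the combination against indisulam. Depth limits CNN1, and MLIP in the libraries with indisulam.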

Other observations

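Of the 4 myoepithelial markers (TP63, KRT5, KRT14, OXTR), which mark the contractile cells of the mammary gland, the summed level was 74.0 CPM untreated, 116 CPM with palbociclib, 49.1 CPM with indisulam and 35.9 CPM with the combination. TP63 had 851 reads untreated, 1378 with palbociclib, 750 with indisulam and 377 with the combination. It was called lower with the combination against palbociclib, at a log2 ratio of -2.05 (-2.21 to -1.88), and against untreated, at -1.37 (-1.54 to -1.19). It carried most of the summed level. With palbociclib against untreated, the 3 markers that passed the filter had log2 ratios above 0, from 0.19 to 0.68, and none was called. KRT5 was called lower with indisulam against untreated, at -1.46 (-2.19 to -0.73). With the combination against indisulam KRT5 was called higher, at 1.07 (0.32 to 1.82). No marker other than TP63 was called lower with the combination against untreated. Against untreated the combination gave OXTR a log2 ratio of 0.92 (0.31 to 1.53) and KRT5 -0.39 with an interval that included 0, neither called, and KRT14, which did not pass the filter, had 2, 6, 5 and 32 reads in the untreated, palbociclib, indisulam and combination libraries. Of the mesenchymal markers, CDH2, the N-cadherin gene, was called higher with the combination against untreated, at 1.13 (1.04 to 1.23), and against palbociclib, at 1.06 (0.97 to 1.16). The other 4 were not called in any comparison, with combination against untreated ratios of -0.80 for VIM, -0.89 for AXL, 0.11 for CD44 and 0.28 for ZEB1. The summed level of the 5 was 5994 CPM untreated and 4048 CPM with the combination.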
